A study of Homo sapiens with 4 samples.

Results

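TRIM28, also called KAP1, is a scaffold protein that KRAB zinc finger proteins bring to DNA, where it gathers the histone methyltransferase SETDB1, heterochromatin protein HP1 and chromatin remodellers. Its best known targets are retroelements, whose transcription it represses, and the zinc finger genes themselves. TRIM24 belongs to the same protein family and acts as a transcriptional coregulator. Introns hold enhancers as well as old copies of transposable elements.

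The sites described here are TRIM28 sites that lie inside protein-coding genes, away from exons and start sites, and have no TRIM24 site on them. They were chosen by the lists of binding sites and by gene annotation: a site of the TRIM28 list with R1881 on chromosomes 1 to 22 or X, no overlap of even 1 bp with a TRIM24 site with R1881, a centre more than 5 kb from every annotated transcription start site (TSS), and a position inside a protein-coding gene but outside every exon. Of the 34574 TRIM28 sites with R1881, 34152 lay on these chromosomes, 29634 of those had no TRIM24 site, 16969 were also distal, 7401 were inside a protein-coding gene and 6952 were outside exons. The 6952 sites are 20.4% of the sites on these chromosomes, and they are called intronic sites below.

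The 4 ChIP-seq samples came from LNCaP, an established line of androgen-sensitive prostate cancer cells, held for 3 days in charcoal-stripped serum and then given 10 nM R1881, a synthetic androgen, or the ethanol vehicle for 16 h. HA-tagged TRIM24, stably expressed, was pulled down through its tag, so that TRIM24 here means the tagged protein, and TRIM28 with an antibody to the protein itself; the study's legend places both pull-downs in the HA-TRIM24 cells, while the labels name plain LNCaP for TRIM28. Each condition is 1 sample, so nothing below carries an error between cultures. The header totals were 11606880 and 12884097 tags for TRIM24 with ethanol and R1881, and 25145171 and 14231181 for TRIM28, with 1.36% to 4.95% of tags inside sites. "TRIM28-only" therefore says that no TRIM24 site was called in a list of 9363 sites whose lowest value was 5.4 normalized tags, so weaker TRIM24 binding could have been missed.

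Site strength is given in normalized tags, meaning tags per library of 10000000. Most of the intronic sites were weak. Their median was 7.70 normalized tags (quartiles 6.30 and 9.10), the same as the medians of TRIM28-only distal intergenic sites and TRIM28-only promoter sites (7.70 each), while distal intronic sites shared with TRIM24 had a median of 9.80. The lowest value, 5.6, was that of 578 intronic sites, and 1899 sites (27.3%) rested on 9 tags or fewer. At 12 normalized tags or more were 479 of the 6952 sites, and at 20 or more 71. Strength entered the choice of sites, because each had to pass the caller's minimum, and these values are a description.

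The 4 strongest intronic sites are shown because they resemble one another in sequence. They lay in ZNF208, a KRAB zinc finger gene, at chr19:22130688-22130844, in TXNL4A, a spliceosome component, at chr18:77782773-77782929, in CMPK2, a mitochondrial nucleotide kinase, at chr2:6985590-6985746, and in FEZ1, a kinesin adaptor, at chr11:125423384-125423540. In ZNF208, TXNL4A and CMPK2 the site lies outside the introns of the reference transcript, the one with the longest coding sequence. Sequences are GRCh37, 157 bases each, 5′ to 3′ on the minus strand for ZNF208 and the plus strand for the others. Capitals mark every 8-letter word that occurs, on either strand, in at least 3 of the 4 sites.
ZNF208: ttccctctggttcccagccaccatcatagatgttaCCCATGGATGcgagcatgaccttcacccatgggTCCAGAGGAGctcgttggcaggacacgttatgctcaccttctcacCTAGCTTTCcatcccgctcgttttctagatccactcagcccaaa
TXNL4A: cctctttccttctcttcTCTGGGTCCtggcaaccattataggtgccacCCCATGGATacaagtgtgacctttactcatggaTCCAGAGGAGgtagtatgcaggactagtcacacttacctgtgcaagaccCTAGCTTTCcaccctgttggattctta
CMPK2: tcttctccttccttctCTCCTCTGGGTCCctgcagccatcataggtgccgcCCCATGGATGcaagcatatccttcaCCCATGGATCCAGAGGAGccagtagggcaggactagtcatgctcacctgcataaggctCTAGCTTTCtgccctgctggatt
FEZ1: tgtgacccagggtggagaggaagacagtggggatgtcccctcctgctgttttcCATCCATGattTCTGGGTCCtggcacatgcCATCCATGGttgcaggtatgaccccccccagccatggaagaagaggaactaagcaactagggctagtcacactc
There were 10 such words. CMPK2 held all 10, TXNL4A 9, ZNF208 8 and FEZ1 4, and the single word present in all 4 sites reads ATCCATGG on one strand or the other. TXNL4A and CMPK2 shared 29 words of 8 letters in all, ZNF208 and CMPK2 24, whereas CMPK2 and FEZ1 shared 4. The sites are on 4 different chromosomes, and the source of the likeness was not tested.

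With R1881, ZNF208 had 71.7 normalized tags of TRIM28 and with ethanol 77.9. TXNL4A had 68.2 with R1881 and 77.5 with ethanol, and CMPK2 had 52.7 and 65.6. FEZ1 had 48.5 with R1881 and 41.4 with ethanol. None of the 4 had a site in either TRIM24 list, and in all 4 the 95% counting interval of the log2 ratio of R1881 to ethanol spanned 0 (ZNF208 -0.48 to 0.23, FEZ1 -0.23 to 0.68). These intervals cover counting error only, and tags from PCR copies are not independent molecules.

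The words were taken from these 4 sites, so their presence there is a description. Elsewhere, at least 4 of the 10 words stood within 200 bp in 1 of the other 6948 intronic sites (0.0144%). They did so in 10 of 7110 TRIM28-only intergenic sites (0.141%). Of 4001477 tiles of 200 bp that cover all distal intronic sequence, 472 did (0.0118%). The share of the other intronic sites is thus near that of the tiles. The 1 other intronic site lay in AKR1C8, at chr10:5207797-5207953. It had 34.4 normalized tags with R1881, 35.8 with ethanol and no TRIM24 site, and as 1 site it does not link the words to strength.

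The next strongest sites by the same order were CATSPERE, which encodes a subunit of the sperm calcium channel (38.6 normalized tags with R1881 and 31.8 with ethanol), PTGFR, the prostaglandin F receptor (37.2 and 37.8), ZSWIM5 (36.5 and 44.9), BTBD8 (36.5 and 37.8) and APIP, an enzyme of methionine salvage (35.8 and 33.4). These 5 had no TRIM24 site in either list. The seventh in order stood apart. It lay in ANKRD30BL at chr2:132975454-132975610, had 37.2 normalized tags with R1881 and no TRIM28 site with ethanol, and had a TRIM24 site with ethanol of 13.8 normalized tags. With R1881 a TRIM24 site lay 26 bp from it. The 16-letter words of its 200 bp had a median of 52 copies in the genome, and the part of that in its values was not tested.

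A second shared sequence was common among weaker sites as well. The 12-letter word held by more intronic sites than any other was AAAACAGCATGG, on either strand, found in 253 of the 6952 sites themselves and in 257 of the windows of 200 bp around their centres (3.70%, Wilson 95% confidence interval 3.28 to 4.17). Of the distal intronic tiles, 0.161% held it. The word was picked as the most common in the intronic sites, which can raise their share, so all contrasts with them are descriptions. Comparators took no part in the choice. The word stood in 381 of 7110 TRIM28-only intergenic windows (5.36%) and in 25 of 8853 TRIM28-only promoter windows (0.282%). In distal intronic sites shared with TRIM24 it stood in 0 of 789. A limit of 3 counts there allows a share of up to 0.380%, and the Wilson upper bound is 0.485%. The strongest intronic site with the word, with 32.3 normalized tags with R1881 and 29.0 with ethanol, was in ADAM18. The next was in SUGCT at chr7:40321286-40321347 (GRCh37, plus strand), shown with 25 bases on each side of the word, which is in capitals.
SUGCT: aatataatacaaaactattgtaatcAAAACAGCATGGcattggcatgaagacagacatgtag
No repeat annotation was used, so no element is named. SUGCT had 25.3 normalized tags with R1881 and 17.5 with ethanol, GRIA4, an AMPA glutamate receptor, 21.8 and 19.1, ENSG00000287856 21.1 and 19.9, GPR158 19.0 and 18.3, and MS4A4A 18.3 and 21.9, all without a TRIM24 site. Of the 257 holders, in 231 genes, 180 had a TRIM28 site with ethanol (70.0%, 64.2 to 75.3, against 59.3% of the sites without the word), 36 reached 12 normalized tags (14%, against 6.62%), and 1 had a TRIM24 site with ethanol, as did 165 of the 6695 without the word.

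The share of repeated sequence differed between weak and strong sites. A window counted as repeated where its 16-letter words had a median of at least 10 copies on chromosomes 1 to 22 and X. By that measure, chosen after the values were seen, 1275 intronic sites were repeated (18.3%), beside 26.3% of distal intronic tiles, 31.3% of TRIM28-only intergenic sites, 17.1% of shared intronic sites and 5.42% of TRIM28-only promoter sites. The share was 17.6% (15.9 to 19.4) in sites under 7 normalized tags, 15.6% from 7 to under 9, 20.1% from 9 to under 12, 30.4% from 12 to under 15, 39.3% (31.4 to 47.7) from 15 to under 20 and 36.6% in sites of 20 or more. From the weakest to the strongest class it also went from 28.2% to 52.9% in intergenic, from 5.94% to 21.2% in promoter and from 15.8% to 33.3% in shared sites. Of the repeated sites 12.7% reached 12 normalized tags, and of the others 5.58%. Short reads are placed less surely in repeated sequence, and its part in these counts was not tested.

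**Figure D1:**
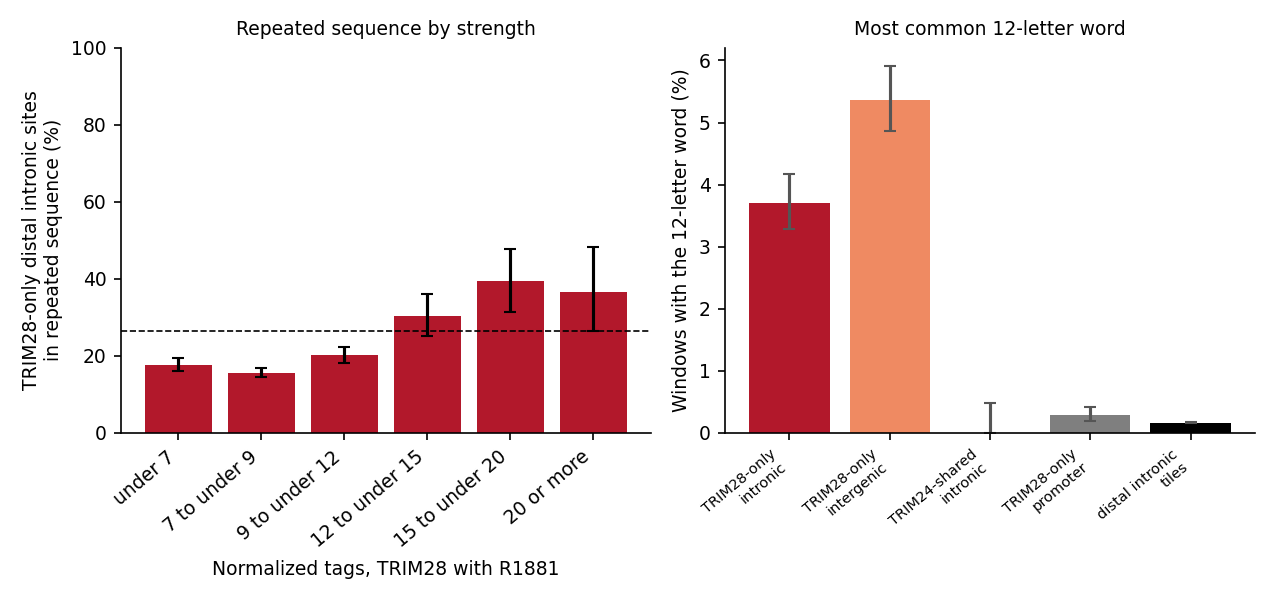
Left, the percentage of intronic sites in repeated sequence by strength with R1881 in normalized tags, with Wilson 95% intervals and a dashed line at the 26.3% of distal intronic tiles. Right, the percentage of 200 bp windows that hold the 12-letter word in each group of sites and in the tiles, with Wilson 95% intervals. The 2 TRIM28-only distal groups stand at 3.70% and 5.36% and the shared group at 0. The word was picked from the intronic sites.

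How many of the intronic sites were present without androgen? Of 6952, 4149 overlapped a TRIM28 site with ethanol, a share of 59.7% (Wilson 95% confidence interval 58.5 to 60.8). Over all TRIM28 R1881 sites on these chromosomes the share was 62.6%. It was 63.5% (62.4 to 64.6) for TRIM28-only intergenic sites, 65.4% (62.0 to 68.6) for shared distal intronic sites and 59.8% (58.8 to 60.9) for TRIM28-only promoter sites. The intronic share minus the intergenic one was -3.85 percentage points (two-sided Fisher's exact test, adjusted over 3 pairs, p = 8.48e-06) and minus the shared one -5.72 points (exact p = 0.00280, adjusted). Minus the promoter share it was -0.163 points (exact p = 0.845, adjusted). The promoter difference took either sign with the setting, at 3.67 points when 50% of the site had to overlap (exact p = 6.63e-06, adjusted) and -11.4 points for centres within 500 bp (exact p = 4.92e-55, adjusted). Sites are the unit of these tests, and culture to culture error is not covered. The ethanol library was deeper, and with ethanol sites held to the lowest strength of the R1881 list the intronic share was 51.2%.

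Strength went with presence in ethanol. Presence means a called site, and a weak site can drop below the ethanol minimum by a small change in counts. The part of that in the shares below was not tested. The share was 43.8% in intronic sites under 7 normalized tags, 57.7% from 7 to under 9, 73.7% from 9 to under 12, 89.7% from 12 to under 15, 97.0% from 15 to under 20 and 98.6% (70 of 71) at 20 or more. The 1 exception in the last class was the ANKRD30BL site. In the class from 9 to under 12, the intronic share was above that of sites shared with TRIM24, 73.7% (71.4 to 75.9) against 58.8% (52.8 to 64.5), a difference that was not tested. Against intergenic sites the order of the shares turned in the strong classes, also untested. It was 73.7% against 78.8% from 9 to under 12, but 89.7% against 89.1% from 12 to under 15, 97.0% against 94.5% from 15 to under 20, and 98.6% (92.4 to 99.8) against 86.5% (80.5 to 90.8) at 20 or more. The lower overall share against shared sites did not hold among sites of at least the median strength, where the intronic share was 2.88 points higher (exact p = 0.146, adjusted), and at a fold of at least 8 over the local region the difference was -3.24 points (exact p = 0.135, adjusted).

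**Figure D2:**
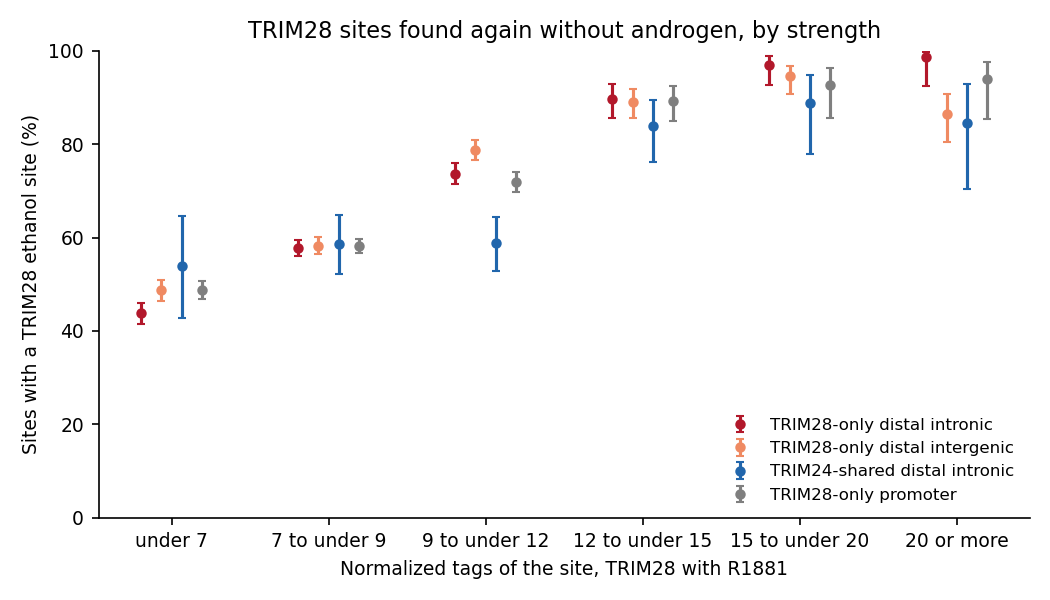
Percentage of TRIM28 R1881 sites that overlap a TRIM28 ethanol site, by strength in normalized tags, for the intronic sites and 3 other groups; points are shares and bars Wilson 95% intervals. The intronic share climbs from 43.8% in the weakest class to 98.6% in the strongest.

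At the 4149 sites present in both conditions, levels were close, but only sites called in both lists enter. The lowest ethanol value was 4.0 normalized tags, so a site at 7.70 or below could not be 2-fold higher with R1881. A site that was lower still with ethanol would have no ethanol site and be left out. The median was 7.70 normalized tags with R1881 and 7.60 with ethanol, and the median log2 ratio was 0.11 (quartiles -0.19 and 0.39), beside 0.08 over all 21373 TRIM28 sites present in both. At least 2-fold higher with R1881 were 113 (2.72%, against 2.55% of all such sites), and at least 2-fold higher with ethanol were 35 (0.844%, against 0.838%). Both shares are near those of all sites. Of the 4149 counting intervals, 73 lay wholly above 0 and 42 wholly below, beside 451 and 212 of the 21373 over all such sites. By counting error alone, at most 5% of such exact intervals would miss an unchanged ratio, and often fewer at low counts. The sites also had to pass both minimums, so these counts are not set against 5%. Sites shared with TRIM24 had a median log2 ratio of 0.24, with 9.88% at least 2-fold higher with R1881. The shared sites were stronger, with a median of 9.80 normalized tags with R1881, so more of them could lie 2-fold above the lowest ethanol value. The part of strength in that share was not tested. With 1 sample per condition these are values without a test.

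**Figure D3:**
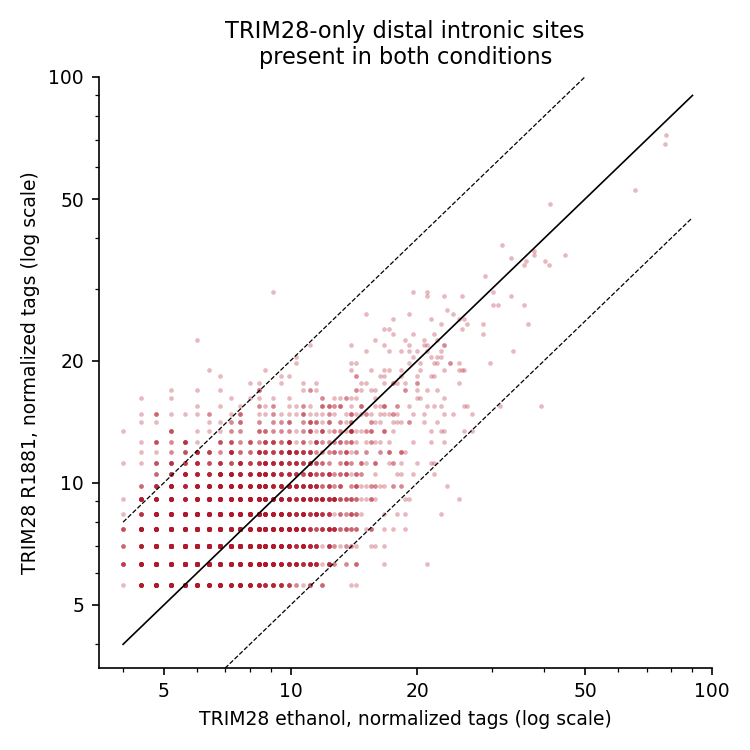
Normalized tags with R1881 against ethanol, both axes logarithmic, for the 4149 intronic sites present in both conditions; the solid line marks equal values and the dashed lines a 2-fold difference. Of the points, 113 lie on or above the upper line and 35 on or below the lower one.

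The sites with the highest ratios were in NEGR1, a neuronal adhesion gene (22.5 normalized tags with R1881, 6.0 with ethanol, log2 ratio 1.91, counting interval 0.99 to 2.91), ATXN10 (16.2 and 4.4), RCSD1 (14.8 and 4.4), ATG10, an autophagy enzyme (13.4 and 4.0), and TMEM182 (16.9 and 5.2). The lowest were in ELFN1 (6.3 with R1881, 21.1 with ethanol, log2 ratio -1.74, interval -2.94 to -0.70), CLDN12, a tight junction claudin (9.1 and 25.1), ABTB2 (8.4 and 22.7), RGS7BP (6.3 and 16.7) and IQCM (5.6 and 14.3). None of these 10 sites had a TRIM24 site in either list. They were picked as the extremes of 4149 ratios, and some rest on values at or near the lowest of a list. That lowest value was 4.0 normalized tags with ethanol, as in ATG10, and 5.6 with R1881, as in IQCM. Among sites with no ethanol site, the strongest after the pair in ANKRD30BL (37.2 and 18.3 normalized tags) were in PLEKHA8 (17.6), ARHGAP10 (16.9), and XYLT1, a xylosyltransferase of proteoglycan synthesis (16.2).

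TRIM24 without androgen was rarely found on the intronic sites. Of 6952, 166 overlapped a TRIM24 ethanol site (2.39%, 2.05 to 2.77), against 7.70% of all TRIM28 R1881 sites, which still hold those with a TRIM24 R1881 site that the rule removed. The share was 3.15% of TRIM28-only intergenic sites (Fisher's exact test, adjusted over 2 pairs, p = 0.00643) and 6.09% of TRIM28-only promoter sites (exact p = 1.76e-30, adjusted). The strongest after ANKRD30BL were CHCHD4, a mitochondrial import factor (TRIM28 29.5 with R1881 and 9.1 with ethanol, TRIM24 9.5 with ethanol), SOX13 (23.2, 28.6 and 13.8) and SLC14A2, a urea transporter (19.0, 15.5 and 7.8). The second ANKRD30BL site had 9.5 normalized tags of TRIM24 with ethanol.

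Motifs were few under the strict match used, which allowed 0 to 3 mismatches. The 6 were searched on both strands of the 200 bp windows. They were those of CTCF, the insulator protein that anchors chromatin loops, and of FOXA1, a forkhead pioneer factor of prostate cells. The others were the androgen response element (ARE) and those of NF1, GRHL2 and AP-1. The letters of all 6 came from the study's motif table for TRIM28-only sites, which include the intronic ones. The choice of motifs is therefore not independent of these samples. At least 1 of them was in the windows of 271 intronic sites (3.90%) and 2 or more in 3. The windows are wider than the sites, with a median length of 157 bp, so a match can lie outside its site. Below, a site with a motif is one with a match in its window. The forkhead motif was in 113 (1.63%, against 0.271% of distal intronic tiles), AP-1 in 49 (0.705%, against 0.101%), CTCF in 48 (0.690%, against 0.0206%), ARE in 34 (0.489%, against 0.167%), NF1 in 17 (0.245%, against 0.0581%) and GRHL2 in 13 (0.187%, against 0.0200%). Each was thus 2.94 to 33.4 times as common as in the tiles, the smallest ratio being that of ARE and the largest that of CTCF. Against windows 5 kb downstream of the sites themselves, the ratio was 12 for CTCF and 4.33 for GRHL2. A match describes letters and does not show that the factor was bound.

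Against TRIM28-only intergenic sites, 3 of the 6 motifs passed the test. CTCF was less common in the intronic sites (0.690% against 1.14%, Fisher's exact test with adjustment over 12 pairs, p = 0.0237), and the forkhead motif (1.63% against 1.14%, exact p = 0.0334, adjusted) and AP-1 (0.705% against 0.352%, exact p = 0.0237, adjusted) were more common. Against sites shared with TRIM24, the ARE was less common in the intronic sites (0.489% against 2.53%, exact p = 1.55e-06, adjusted) and CTCF more common, with 0 of 789 shared sites holding it (exact p = 0.0334, adjusted). The forkhead share of the shared sites was 2.66% (exact p = 0.0853, adjusted). Of these calls only that of the ARE held in windows of 100 bp and among sites of at least the median strength. In 100 bp windows the intergenic differences had adjusted exact p = 0.373 for CTCF, 0.317 for forkhead and 0.233 for AP-1, and CTCF against shared sites 0.385.

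**Figure D4:**
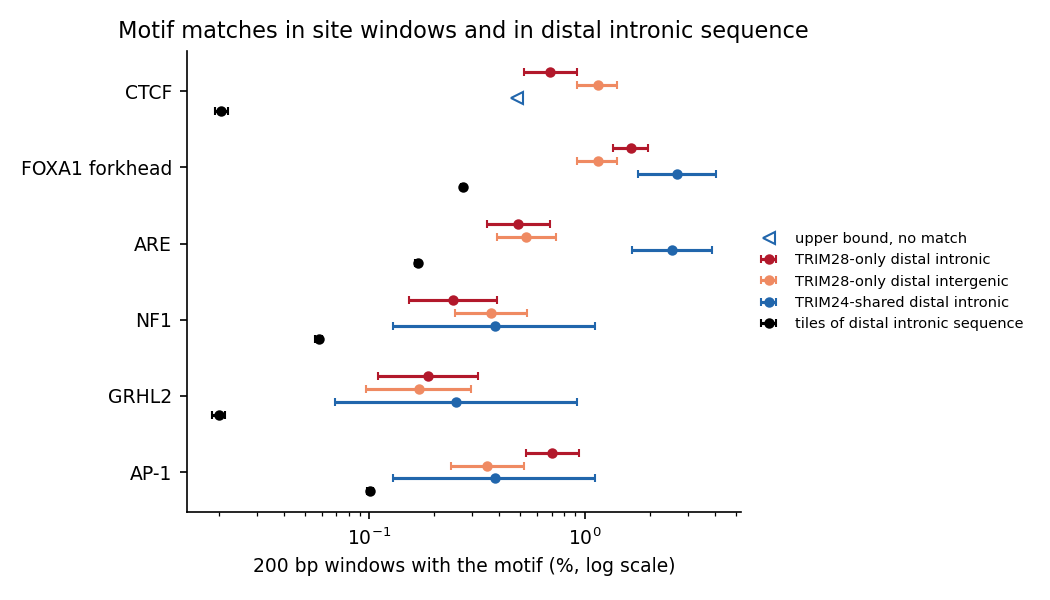
Percentage of 200 bp windows with each motif on a logarithmic axis, for the intronic sites, 2 other groups of sites and all distal intronic tiles; points are shares, bars Wilson 95% intervals, and the open triangle the upper bound for CTCF in the shared group, where no window held it. The intronic sites lie above the tiles for all 6 motifs.

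Of the 3 strongest holders of each of the CTCF, FOXA1 forkhead and ARE motifs, 8 are shown with 25 bases on each side. The motif is in capitals, on the strand that reads it (GRCh37). That of CTNND2 lies in the window but outside its site, chr5:11561665-11561821, and some others run past the edge of theirs.
CTCF, SLC26A2, chr5:149370494-149370563, plus strand: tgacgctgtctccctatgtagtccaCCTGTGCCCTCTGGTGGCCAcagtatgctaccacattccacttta
CTCF, MID2, chrX:107137469-107137538, plus strand: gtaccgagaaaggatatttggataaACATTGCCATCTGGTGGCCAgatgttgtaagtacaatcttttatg
forkhead, CATSPERE, chr1:244737149-244737208, minus strand: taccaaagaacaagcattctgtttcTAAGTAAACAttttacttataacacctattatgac
forkhead, GNA13, chr17:63019092-63019151, minus strand: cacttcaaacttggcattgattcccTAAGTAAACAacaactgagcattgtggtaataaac
forkhead, PAPSS1, chr4:108605193-108605252, plus strand: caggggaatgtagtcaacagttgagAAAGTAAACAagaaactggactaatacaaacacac
ARE, ZNF341, chr20:32324831-32324896, minus strand: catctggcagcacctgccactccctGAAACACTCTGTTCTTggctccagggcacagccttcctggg
ARE, CTNND2, chr5:11561621-11561686, minus strand: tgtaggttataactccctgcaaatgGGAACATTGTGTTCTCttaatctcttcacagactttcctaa
ARE, ELL, chr19:18617974-18618039, minus strand: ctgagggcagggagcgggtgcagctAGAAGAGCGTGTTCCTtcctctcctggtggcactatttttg
Of the CTCF sites, CFAP61, a cilium gene, had 15.5 normalized tags with R1881 and 12.3 with ethanol, SLC26A2, a sulfate transporter, had 14.1 and 4.4, a log2 ratio of 1.68 (counting interval 0.55 to 2.89), and MID2 had 11.9 and 8.4. Of the forkhead sites, that in CATSPERE had 16.2 and 23.1, GNA13, a G protein subunit, 14.8 and 12.7, and PAPSS1, which makes the sulfate donor PAPS, 14.8 and 5.2. Of the ARE sites, ZNF341, a zinc finger transcription factor, had 11.9 with R1881 and 13.5 with ethanol, while CTNND2, a catenin (11.9), and ELL, an RNA polymerase II elongation factor (11.2), had no ethanol site. None of the 9 had a TRIM24 site in either list.

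Of the 34 sites with an ARE, 11 had a TRIM28 site with ethanol (32.4%, 19.1 to 49.2), against 62 of 113 with the forkhead motif (54.9%, 45.7 to 63.7), 27 of 48 with CTCF (56.2%, 42.3 to 69.3), 37 of 49 with AP-1 (75.5%, 61.9 to 85.4) and 3994 of 6681 with none of the 6 (59.8%, 58.6 to 61.0). The interval of the ARE sites lies below that of the sites without a motif. No test was planned for this contrast, and the numbers are small. Of the other motifs, the strongest holders were GATAD2B, a subunit of the NuRD remodelling complex, for NF1 (14.8 and 9.5), and CMIP for GRHL2 (9.1 and 18.7).

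Within genes, the intronic sites lay somewhat nearer to start sites than distal intronic sequence does. Their median distance to the nearest TSS was 15.2 kb against 17.9 kb for the tiles, and 11% of the sites against 16.6% of the tiles were more than 50 kb away. Of the 6952 sites, 5955 lay in an intron of the reference transcript of the host gene, and the others lay outside its introns. Among the 5955, 1563 were in the first intron (26.2%), beside 22.3% of tiles. The GC content of all the intronic sites had a median of 43.5%, the same as intergenic and shared intronic sites. It was 39.5% for the tiles and 58.5% for promoter sites. The median ratio of observed to expected CpG was 0.159, beside 0.169 for the tiles and 0.606 at promoters. Position entered the choice of sites, so these values are descriptions.

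Of 20098 protein-coding genes, 3662 (18.2%) held an intronic site. Of these, 2056 held 1 and 266 held 5 or more. Gene length went with the count: host genes had a median of 77.8 kb of distal intronic sequence, and genes with such sequence but no site 12.6 kb. The most sites, 18, were in LPP, a focal adhesion gene with 558 kb, and 8 of the 18 had an ethanol site. NAALADL2 and PDE4D, a cAMP phosphodiesterase, held 16 each, with 3 and 9 present in ethanol. CACNA2D3, a calcium channel subunit, held 15, KAZN, LRRC4C and the methyltransferase gene SMYD3 14 each, CAMTA1 and THSD4 13 each, and MACROD2 12. Per 100 kb, the highest densities among genes with at least 5 sites were in STYK1 (13.4), F5, which encodes coagulation factor V (11), ELL (9.88), PRRC2B (9.73) and ILRUN (7.51).

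**Figure D5:**
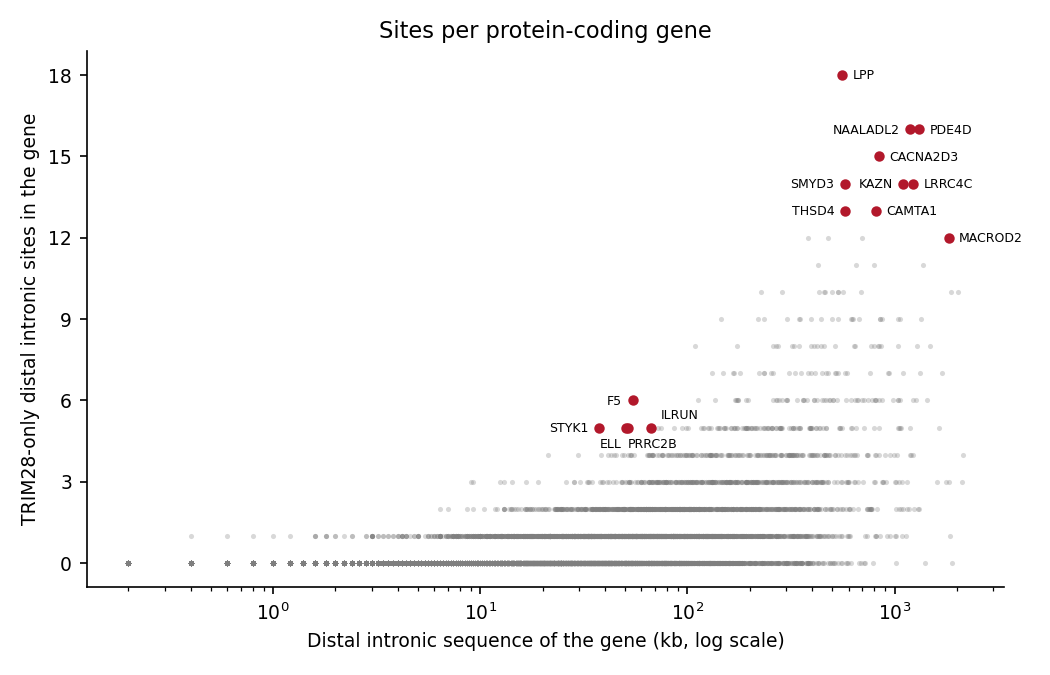
Number of intronic sites in each protein-coding gene against the gene's distal intronic sequence in kb on a logarithmic axis; grey points are genes with any such sequence and red points the named genes. LPP holds the most, 18 sites in 558 kb, and STYK1, F5, ELL, PRRC2B and ILRUN hold 5 or 6 in at most 66.6 kb.

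Gene groups are given by how many of their genes held a site, beside 18.2% of all protein-coding genes. They are also given by sites per Mb of distal intronic sequence, beside 8.69 over all such sequence. Of the 20098 protein-coding genes only 13080 have such sequence, so 18.2% is a low mark for genes that could hold a site. The groups were chosen with earlier results of these data known, and no test was made. Of the androgen-responsive genes, 11 of 28 gene entries held 19 sites (17.1 per Mb). They included ZBTB16, a zinc finger repressor (11.9 normalized tags with R1881 and 8.0 with ethanol at its strongest site), ABCC4, a drug and prostaglandin exporter (11.2 and 8.7), UAP1, an enzyme of the hexosamine pathway (9.8 and 7.6), and FKBP5, a cochaperone (9.1, with no ethanol site). Of the steroid and lipid enzymes, 7 of 18 held 19 sites (28.2 per Mb). ACACA, which makes malonyl-CoA, held 7, ELOVL5, a fatty acid elongase, 4 (strongest 13.4 and 13.9), and CPT1A, which carries fatty acids into mitochondria, 2 (strongest 14.8 and 15.5). These lists are short in sequence, with 1.11 and 0.673 Mb in all. Their median distal intronic sequence per gene was 26.5 kb for the androgen-responsive genes and 27.1 kb for the enzymes.

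Among the prostate transcription factors, 6 of 18 (33.3%) held 23 sites, at 14 per Mb and a median distal intronic sequence of 30.7 kb. NFIA, an NF1 family factor, held 8 (strongest 11.2 and 6.4) and GRHL2 7, while FOXA1 and HOXB13 were among those that held none. Of the TRIM28 repression machinery, with a median distal intronic sequence of 14.9 kb, 7 of 20 (35%) held 9 sites, at 19.2 per Mb. The strongest of these, with 28.8 normalized tags with R1881 and 23.1 with ethanol, lay in an intron of TRIM24 itself, at chr7:138212553-138212709, without a TRIM24 site in either list. DNMT3A, a DNA methyltransferase, held 1 (8.4, with no ethanol site), and TRIM28 and SETDB1 none. Of the nuclear receptor coregulators, 10 of 19 (52.6%) held 22 sites, at 12.2 per Mb and a median distal intronic sequence of 70.4 kb, with NCOA2 (11.2 and 10.3), NCOA1 (9.8 and 5.6) and CREBBP (9.1 and 5.2) among them. Of the CTCF and cohesin genes, with a median of 43.0 kb, 3 of 13 (23.1%) held 6 sites, at 5.24 per Mb. The strongest was in STAG1, a cohesin subunit (14.1 and 17.5).

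Zinc finger genes, whose last exons are well known TRIM28 targets, were not rich in intronic sites by count. Of 515 genes, 51 held one (9.90%), at 7.16 per Mb, and their median distal intronic sequence was 7.20 kb. Some of those sites were strong, with ZNF208 first, then ZNF573 (29.5 with R1881 and 19.5 with ethanol), ZNF274 (26.0 and 24.3) and ZNF831 (20.4 and 19.5). Of the very long genes of common fragile sites, 14 of 16 held a site, with a median distal intronic sequence of 1558 kb and a density of 4.23 per Mb. Both densities were below the 8.69 of all such sequence. CTNNA3 (22.5 and 15.9), MACROD2 (16.2 and 19.9), CNTNAP2 (14.1 and 11.1) and PTPRD (11.9 and 6.4) had the strongest, and DMD was among those that held none.

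At the edges of the rule, values differed little. The 272 intronic sites just beyond 5 kb from a TSS had a median of 7.70 normalized tags and 65.4% had an ethanol site. The 278 sites just inside 5 kb, otherwise alike, had 7.70 and 64.0%. The sites nearest to TRIM24 with R1881 without touching it were in SNX29 (0 bp between them, 10.5 normalized tags), IQGAP3 (3 bp, 11.2) and SLC38A1 (3 bp, 7.7). Those that overlapped a TRIM24 site by least, and so were left out, were in EBF2 (1 bp, 10.5), IRAK2 (3 bp, 11.2) and the overlapping genes BABAM2 and MRPL33 (5 bp, 7.7). In all, 101 intronic sites (1.45%) had a TRIM24 R1881 site within 500 bp, and the median distance to one was 101 kb.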

How the data were processed

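The authors aligned reads to hg19 with BWA 0.6.1 and called sites per sample with HOMER 4.1, with no input library in the recorded command (FDR 0.001, 4-fold over the surrounding 10 kb, local Poisson p 1e-04). For each site they deposited a signal (the normalized tag count, per 10000000 tags), a score, a ratio (fold over the local region) and an unadjusted p-value. The score and p-value enter no result here. Methods state that reads were matched in number between samples, while the headers give unequal totals, which were used here. The TRIM28 header minimum was 9 tags with R1881 and 12 with ethanol, and the lists also hold some sites with fewer normalized tags than those minimums give.

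Sites were placed on GENCODE 44 lifted to GRCh37, whose chromosome lengths hold every site. Overlap meant at least 1 bp, promoters lay within 2 kb of a TSS, and tiles were the 200 bp steps of the genome that meet the positional rule. The reference transcript had the longest coding sequence. Motif mismatches allowed were 3 for CTCF, 2 for GRHL2, 1 for ARE and NF1 and 0 for the others. Shares were compared by two-sided Fisher's exact test with Benjamini-Hochberg adjustment and have Wilson 95% intervals. Tags behind each value were its normalized count times the library total, which lay within 0.0698 of a whole number at every intronic site in R1881, and ratio intervals are exact binomial. The limits of 3 counts and the intervals cover counting error only. Named sites and genes were the extremes by strength, ratio, count and density, and the strongest per list and motif. Sites, lists and tests were chosen with earlier results of these data known, and the words and copy numbers after seeing the sequences. 2 list symbols were matched through older names, and HERC3 has 2 gene entries. Scripts (scipy 1.17.1 and numba 0.67.0 under Python 3.11.15, with matplotlib 3.10.9, pandas 2.3.3 and numpy 2.4.6) were tested on simulated data. Some genes and sequences are not reported here.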

Additional observations from a re-analysis of the deposited data

How the results depend on the processing

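No paired analysis was possible because each condition is 1 sample. Of 142 alternative values over 36 results, 93 kept direction and side of the threshold, or stayed within 1.5 times the main number of sites, the 95% interval of a share or the spread of a median, and the causes of the others were not tested. The number of intronic sites was 8808 with a 2 kb limit to a TSS, 4886 with 10 kb, 8877 with protein-coding TSSs only, 4900 at a fold of at least 8 and 3693 at or above the median strength. Their share with a TRIM28 ethanol site was 49.3% when 50% of the site had to overlap, 64.7% for centres within 500 bp, 51.2% at an equal strength minimum, 64.1% at a fold of at least 8, 70.7% at or above the median strength and, chosen after seeing the data, 58.2% without repeated sequence. Against shared intronic sites, the difference was -3.24 points at a fold of at least 8 and 2.88 at or above the median strength. Against promoter sites it was 3.67 points with 50% overlap, -11.4 for centres within 500 bp, -1.82 at the equal minimum, -3.10 at a fold of at least 8, 2.70 at or above the median strength and -1.69 without repeated sequence, all past the threshold. The lower share than in intergenic sites held under all alternatives run, though not within the classes of 12 normalized tags or more. The TRIM24 ethanol share was 1.75% with 50% overlap, 2.79% for centres within 500 bp and 3.20% at or above the median strength.

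For motifs, differences from intergenic sites lost the call in 100 bp windows (CTCF -0.175 points, forkhead 0.275, AP-1 0.176), at or above the median strength (-0.423, 0.586 and 0.429) and, for forkhead (0.50) and AP-1 (0.315), in wider windows. CTCF against shared sites lost it in 100 bp windows (0.345) and at or above the median strength (0.569). With 1 more mismatch, forkhead against shared sites passed (-8.24). Counting any coding transcript, 37.5% of the sites were in a first intron. Repeated sequence held 37.7% of sites and 56.9% of tiles at 5 copies, and 7.88% and 15.9% at 50. Most sites rest on few tags, so sites found in 1 condition only may lie just under the other minimum.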

Other observations

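Intronic sites were not spread evenly over chromosomes. Density ran from 1.52 sites per Mb of distal intronic sequence on chromosome X, with 55 sites, to 13 on chromosome 1, with 850, beside 8.69 over all of them, and was 4.31 on chromosome 13. The share with an ethanol site was lowest on X (45.5%) and highest on chromosome 19 (74.1%), and it was below the intergenic share on 19 of 23 chromosomes. The copy number of chromosomes in these cells was not measured, and its part in the densities was not tested.

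Another TRIM28 R1881 site lay within 10 kb of 1999 intronic sites (28.8%), and for 1414 the neighbour was an intronic site too. The share that site density alone would give was not computed, so these counts do not show clustering. Of 219 genes with at least 500 kb of distal intronic sequence, 18 held no intronic site.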
